A study of Mus musculus with 4 samples.

Results

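The genes described here encode the collagens, the laminins and 4 proteins that join them into a matrix: nidogen-1 and nidogen-2 (Nid1, Nid2), perlecan (Hspg2) and fibronectin (Fn1). Members were every gene whose symbol is Col, a number, a and a number, or Lama, Lamb or Lamc and a digit, together with those 4. This rule reads symbols and no measured value. It found 59 of the 32285 genes in the files. They are 11 fibrillar collagens, 8 basement membrane collagens, 6 beaded filament collagens, 9 fibril-associated collagens, 4 network and anchoring collagens, 4 transmembrane collagens, 2 other collagens, 5 laminin alpha, 3 laminin beta and 3 laminin gamma chains, 3 linkers and fibronectin.

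RNA of single cells was counted in pancreatic islets of female mice on the C57b6/J background. All animals had received diphtheria toxin (DT), as 4 injections 48 hours apart from postnatal day 2. They were CCR2-DTR+/- mice, whose transgene makes cells that express the chemokine receptor CCR2 sensitive to the toxin, or WT littermates (CCR2-DTR-/-), taken at 1 month or 6 months of age. Each of the 4 combinations is a single 10x Chromium library. It holds 300 islets, which were digested out with collagenase and combined from 2 to 3 females, so single animals cannot be told apart. The WT mice received the toxin as well, so no group is untreated, and the libraries were made weeks to months after the injections.

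Collagens are trimers of alpha chains. Fibrillar collagens (types I, II, III, V, XI, XXIV and XXVII) form the fibres of connective tissue, whereas type IV collagen forms the sheet of basement membranes, to which laminin trimers of an alpha, a beta and a gamma chain are joined by nidogens and perlecan. Islet capillaries are wrapped in such a basement membrane, which mouse endocrine cells border on, and integrins and dystroglycan are the receptors by which cells hold on to laminin and collagen.

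The files list 5089 to 12444 barcodes and 60315217 to 121292320 UMIs (counted RNA molecules) per library, and 25220 cells were kept. The share of barcodes over the limit of 15% mitochondrial UMIs was 9.4% and 12.2% in the WT libraries and 18.4% and 23.9% in the CCR2-DTR+/- libraries, at 1 and 6 months. Cells were clustered without the 59 genes, and classes were named from other markers. Endothelial-like cells numbered 634, 633, 314 and 364 in the libraries of 1 month (WT, then CCR2-DTR+/-) and of 6 months (again WT first). Every set of 4 values below follows that order. Pericyte-like cells (smooth muscle included) numbered 198, 288, 53 and 69, fibroblast-like cells 63, 121, 5 and 38, and Schwann-like cells (nerve glia) 27, 30, 14 and 12. The 5 fibroblast-like cells of WT at 6 months are too few for a test, so tests against fibroblast-like cells use the other 3 libraries. Levels are CPM, the UMIs of a gene per 1000000 UMIs of all cells of a class in a library. They are not scaled by gene length, and fewer molecules per cell cannot be told apart from more RNA of other genes.

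Several of these genes lie in pairs, and the pairs that make type IV collagen carry much of what follows. By GENCODE vM21 on GRCm38 (mm10), Col4a1 (chr8:11198423-11312826, minus strand) and Col4a2 (chr8:11312805-11449287, plus strand) face away from each other, with starts 21 bases apart. Col4a4 (chr1:82448423-82586849, minus strand) and Col4a3 (chr1:82586921-82722059, plus strand) do the same with starts 72 bases apart. Col4a5 and Col4a6 on chromosome X have starts 1309 bases apart. The shared start regions of the first 2 pairs are shown for 2 reasons. The ratio within the first pair differed between cell classes, and in endothelial-like cells the second pair moved apart from the first with age. Each is a window of 250 bases before to 50 bases after the start of the minus-strand gene, from RefSeq on GRCm38.p6, read 5′ to 3′ on the minus strand, at chr8:11312777-11313076 and chr1:82586800-82587099. Both windows also hold the start of the partner gene, Col4a2 in the first and Col4a3 in the second. Capitals mark matches, on either strand, to the GC box letters GGGCGG or to CCAAT.
Col4a1: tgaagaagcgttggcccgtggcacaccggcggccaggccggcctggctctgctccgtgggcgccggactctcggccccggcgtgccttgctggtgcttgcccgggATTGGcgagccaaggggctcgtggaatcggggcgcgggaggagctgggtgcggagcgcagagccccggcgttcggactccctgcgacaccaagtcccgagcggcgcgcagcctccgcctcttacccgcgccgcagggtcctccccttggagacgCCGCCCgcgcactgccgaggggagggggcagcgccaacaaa
Col4a4: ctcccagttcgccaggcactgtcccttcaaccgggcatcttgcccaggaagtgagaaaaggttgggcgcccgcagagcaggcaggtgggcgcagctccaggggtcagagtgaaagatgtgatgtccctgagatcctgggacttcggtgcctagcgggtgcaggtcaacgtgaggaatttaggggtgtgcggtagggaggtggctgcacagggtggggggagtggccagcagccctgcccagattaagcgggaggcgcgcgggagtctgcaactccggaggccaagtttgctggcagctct
The Col4a1 window held 1 GC box match and 1 CCAAT match, and the Col4a4 window held none of either. Of all 32851 windows in the table, 35.7% held a GC box match and 37.4% a CCAAT match. RefSeq windows were found for 42 of the 59 members, some with more than 1 start, and of their 46 windows 60.9% and 32.6% held these matches. The letters describe the windows and mark no known site.

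Fibrillar collagen RNA was concentrated in fibroblast-like cells and basement membrane RNA in endothelial-like cells, but neither group was confined to a single class. Summed over the 11 fibrillar collagens, fibroblast-like cells held 15330, 21939, 19067 and 17975 CPM. Schwann-like cells held 1339, 4259, 1244 and 817.5 CPM and pericyte-like cells 1294, 1422, 918.9 and 612.8 CPM, whereas endothelial-like cells held 24.3, 33.7, 17.4 and 15.4 CPM. The fibroblast-like values lie above those of every other class in each library, and the endothelial-like values lie below those of the 3 other stromal and glial classes. Summed over the basement membrane collagens, laminins and linkers, endothelial-like cells held 8833, 10057, 6650 and 5813 CPM, fibroblast-like cells 4348, 5278, 5957 and 4785 CPM and pericyte-like cells 3956, 4221, 2910 and 2079 CPM. Schwann-like cells held 1700, 3479, 1740 and 766.4 CPM of this second sum. Beta-like cells held 45.4, 47.7, 39.1 and 35.3 CPM.

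The same division was seen cell by cell. With every cell thinned to 1000 UMIs, at least 1 fibrillar collagen UMI was found in 100%, 100%, 100% and 89.5% of fibroblast-like cells, in 74.2%, 77.4%, 56.6% and 52.2% of pericyte-like cells and in 70.4%, 93.3%, 78.6% and 58.3% of Schwann-like cells. In endothelial-like cells it was found in 2.37%, 2.69%, 1.59% and 1.37%. Col4a1 or Col4a2 was found in 96.8%, 96.2%, 87.3% and 86.5% of endothelial-like and in 88.4%, 92%, 71.7% and 71% of pericyte-like cells. It was also found in 85.7%, 86.8%, 100% and 60.5% of fibroblast-like and in 44.4%, 80%, 35.7% and 25% of Schwann-like cells.

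**Figure D1:**
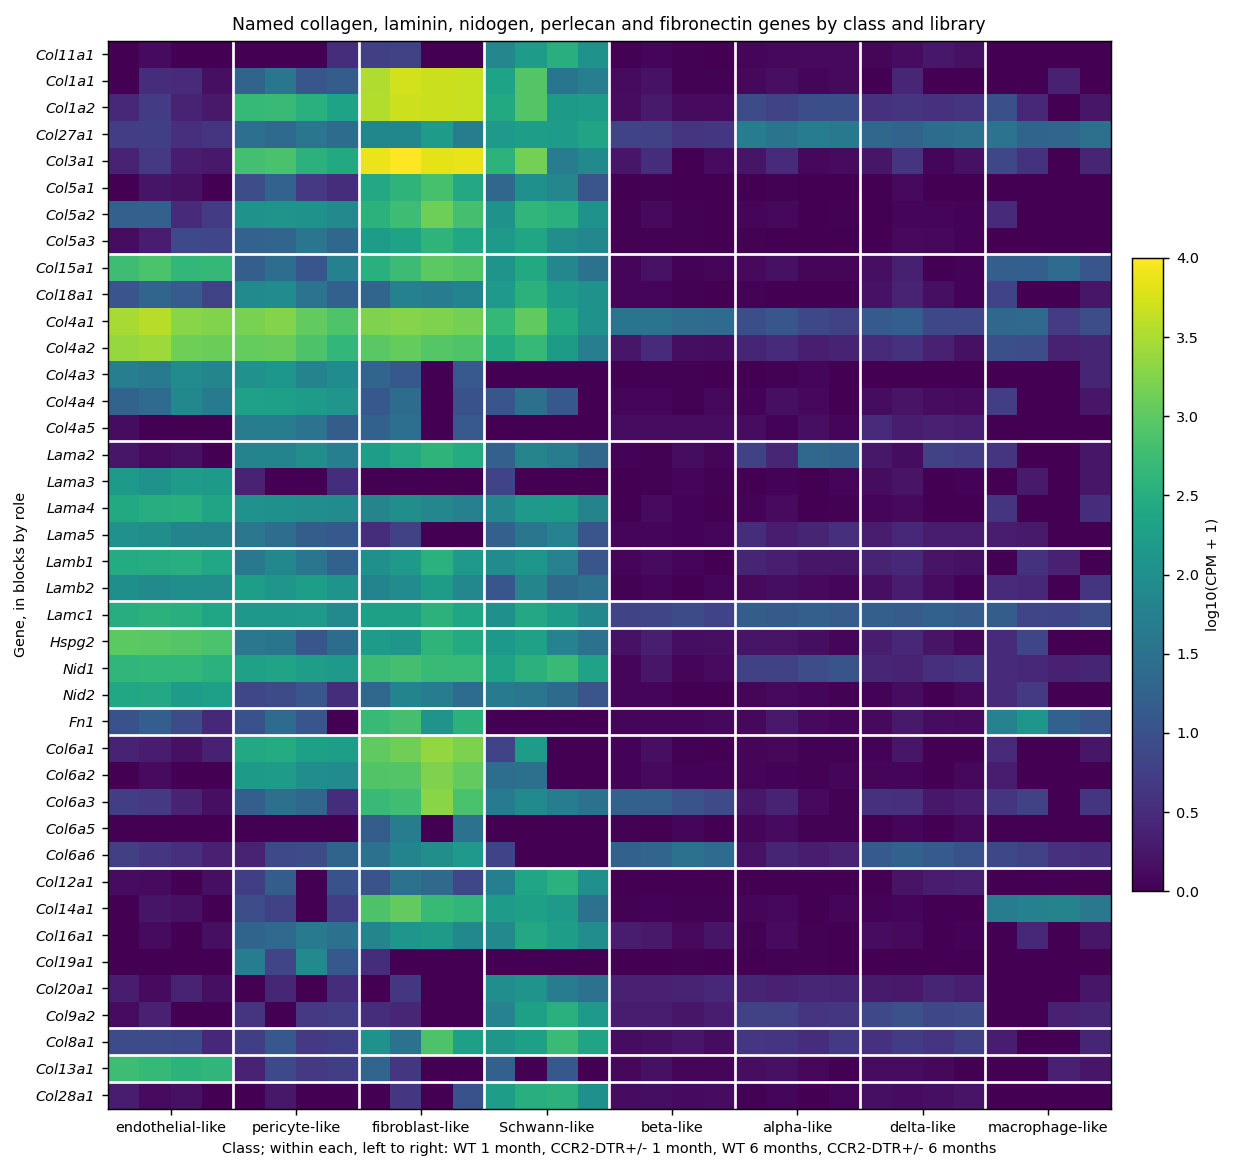
Level of the 40 members with a median of at least 20 CPM in a class, as log10(CPM + 1), in rows grouped by role (gene symbols on the vertical axis) and in columns of 4 libraries for each of 8 classes. The fibrillar block is brightest in fibroblast-like cells, Col4a1 and Col4a2 are bright in all 4 stromal and glial classes, and in beta-like cells Col4a1 stands at 24.1 to 34.7 CPM beside Col4a2 at 0.38 to 2.08 CPM.

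Of the 59 members, 40 reached a median of at least 20 CPM in a class. Their highest median was in fibroblast-like cells for 16, in endothelial-like cells for 10, in Schwann-like cells for 9 and in pericyte-like cells for 5. Differences between classes were tested within libraries with edgeR's quasi-likelihood test and Benjamini-Hochberg adjustment over all genes tested, called at an adjusted p under 0.05. Between endothelial-like and pericyte-like cells, 12 members of 30 tested were higher in endothelial-like and 16 in pericyte-like cells (46.8% of all genes called). Between endothelial-like and fibroblast-like cells, 10 of 34 were higher in endothelial-like and 20 in fibroblast-like cells (37.5% of all genes called). Pericyte-like cells were higher for 3 and fibroblast-like cells for 22 of 30 (21.7% of all genes called). Schwann-like cells were higher for 6 and fibroblast-like cells for 15 of 29 (19.5% of all genes called). The members' median log2 fold changes in these 4 contrasts were -0.69, -4.01, -2.50 and -1.23, where the medians over all genes tested lay between -0.0135 and -0.000893.

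Type I and type III collagen were highest in fibroblast-like cells, and pericyte-like cells held Col3a1 and Col1a2 at lower levels. Col3a1, the single chain of type III collagen, stood at 7675, 10443, 6965 and 7391 CPM in fibroblast-like cells and at 639, 708, 370 and 266 CPM in pericyte-like cells. Col1a1 and Col1a2, the chains of type I collagen, stood at 3365, 5277, 4784 and 4661 CPM and at 3429, 4970, 4784 and 4691 CPM in fibroblast-like cells, a ratio of 0.981, 1.06, 1.00 and 0.994. In pericyte-like cells Col1a2 was at 475, 503, 345 and 206 CPM, whereas Col1a1 was at 18.5, 36.2, 10.7 and 13.9 CPM. Few cells carried these Col1a1 values: 6 of 198, 11 of 288, 2 of 53 and 4 of 69 pericyte-like cells had a UMI, and the top 3 cells held 75%, 62.8%, 100% and 83.3% of them. The ratio of Col1a1 to Col1a2 there was 0.0586 over the 4 libraries, so the paired chains of type I collagen were far from equal in pericyte-like cells. Against fibroblast-like cells, pericyte-like cells differed for Col1a1 by -7.67 ± 0.34 on the log2 scale (SE; 3 of 3 libraries; edgeR, adjusted p = 2.81e-09), for Col3a1 by -4.20 ± 0.31 (adjusted p = 1.95e-07) and for Col1a2 by -3.65 ± 0.31 (adjusted p = 6.74e-07).

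Against endothelial-like cells, pericyte-like cells were higher in 4 of 4 libraries, with log2 fold changes for endothelial-like over pericyte-like of -8.03 ± 0.20 for Col3a1 (edgeR, adjusted p = 1.14e-18), -7.43 ± 0.19 for Col1a2 (adjusted p = 2.52e-18) and -4.08 ± 0.48 for Col1a1 (adjusted p = 2.32e-07). Fibroblast markers in pericyte-like cells (12 genes, Pdgfra, Lum, Clec3b, Serpinf1 and Scara5 at 0) summed to 761 to 1011 CPM, against 7200 to 19512 CPM in fibroblast-like cells. Dcn, the defining fibroblast proteoglycan, stood in pericyte-like cells at 0.0266% of its fibroblast-like level, Dpt at 0.277% and Col1a1 at 0.553%. Most of the marker sum was Gsn, at 418, 390, 634 and 509 CPM, and Cygb, at 422, 364, 378 and 349 CPM against 442, 601, 1102 and 807 CPM in fibroblast-like cells. The part of cells mixed in or of free RNA in the Col1a1 value was not tested. In the other direction, the 13 pericyte markers summed to 2944, 3024.5, 3401 and 1401 CPM in fibroblast-like cells. They summed to 13250 to 20991.5 CPM in pericyte-like cells. The part of mixed-in cells or free RNA in the fibroblast-like levels was not tested.

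The chains of type V collagen, which nucleates type I fibres, also had their highest medians in fibroblast-like cells. Col5a2 in pericyte-like cells was 19.2% of its fibroblast-like level over the 4 libraries. That share was 9.66% for Col1a2, 6.6% for Col3a1 and 0.553% for Col1a1. Col5a2 stood at 373, 574, 1290 and 666 CPM in fibroblast-like cells, at 112, 430, 346 and 112 CPM in Schwann-like cells and at 109, 116, 114 and 74.0 CPM in pericyte-like cells. The fibroblast-like and Schwann-like ranges overlap. Col5a1 (fibroblast-like 258, 394, 680 and 262 CPM) and Col5a3 (156, 205, 399 and 253 CPM) were higher in fibroblast-like than in pericyte-like cells by edgeR's test, with log2 fold changes for pericyte-like over fibroblast-like of -5.03 ± 0.28 (adjusted p = 1.58e-08) and -3.51 ± 0.22 (adjusted p = 5.20e-08). Schwann-like and fibroblast-like cells did not pass the test for Col5a3 (log2 fold change -0.47 ± 0.31, adjusted p = 0.369). Col3a1 and Col5a2 lie tail to tail on chromosome 1 with 24615 bases between them, and the ratio of Col3a1 to Col5a2 was 15.8 in fibroblast-like, 5.41 in pericyte-like and 2.36 in Schwann-like cells over the 4 libraries.

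By CPM, the fibrillar collagen Col11a1 set Schwann-like cells apart, whereas Col27a1 was highest there by median but shared with other classes. Col11a1, a chain of type XI collagen best known from cartilage, stood at 69.1, 160, 334 and 112 CPM in Schwann-like cells and at 4.73, 5.0, 0 and 0 CPM in fibroblast-like cells. The 2 ranges are far apart, and Schwann-like cells were higher by 4.83 ± 0.53 on the log2 scale (3 of 3 libraries; edgeR, adjusted p = 3.78e-07). A Col11a1 UMI was found in 8 of 27, 9 of 30, 8 of 14 and 5 of 12 Schwann-like cells. The top 3 cells held 61.5%, 59.1%, 62.1% and 72.7% of the 13, 22, 29 and 11 UMIs. Col27a1, a fibrillar collagen with a short triple helix, was at 143, 175, 161 and 215 CPM in Schwann-like and 68.5, 68.4, 164 and 48.2 CPM in fibroblast-like cells. The highest fibroblast-like value, from 5 cells, overlaps the Schwann-like range, and the difference over the other 3 libraries was 1.44 ± 0.30 (edgeR, adjusted p = 0.00103). That call was lost with DESeq2, at 1.48, and with a limit of 10% mitochondrial UMIs, at 1.08.

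Type I and III collagen in Schwann-like cells were uneven between libraries and between cells. Col1a1 was at 207, 861, 34.6 and 51.1 CPM and Col3a1 at 383, 1466, 46.1 and 81.7 CPM, with the CCR2-DTR+/- library at 1 month highest for both. In that library 15 of 30 Schwann-like cells had a Col1a1 UMI, 1 cell held 60 of the 118 UMIs (50.8%), and the top 3 cells held 72%. The top 3 cells held 58.7% of Col3a1 and 59.1% of Col1a2 UMIs there. Fibroblast markers in Schwann-like cells summed to 489 to 1463 CPM with Pdgfra, Lum, Dpt, Clec3b and Scara5 at 0, and Dcn had 1 UMI in all 83 cells. Col1a1 over all Schwann-like cells was 7.13% of its fibroblast-like level, the fibroblast marker Serpinf1 7.79% (from 12 UMIs) and Dcn 0.0443%. Most of the marker sum was Gsn, at 462, 1072, 1371 and 685 CPM. The part of mixed-in cells or free RNA in these values was not tested.

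Col4a1 and Col4a2, which form the main type IV collagen of every basement membrane, were the highest members in endothelial-like cells. Col4a1 stood at 3009, 3710, 1967 and 1721 CPM in endothelial-like, 1566, 1797, 1083 and 777 CPM in pericyte-like and 1664, 1845, 1689 and 1443 CPM in fibroblast-like cells. Endothelial-like values were highest in each library, although the endothelial-like values at 6 months overlap the fibroblast-like values at 1 month. Col4a2 stood at 2305, 2587, 1318 and 1255 CPM, 1140, 1159, 762 and 451 CPM, and 948, 1124, 891 and 792 CPM in the same classes. Against pericyte-like cells, endothelial-like cells were higher by 1.04 ± 0.12 for Col4a1 (4 of 4 libraries; edgeR, adjusted p = 1.59e-07) and by 1.15 ± 0.13 for Col4a2 (adjusted p = 6.86e-08) on the log2 scale. Against fibroblast-like cells the differences were 0.62 ± 0.19 (adjusted p = 0.0209) and 0.96 ± 0.19 (adjusted p = 8.24e-04). The Col4a1 call against fibroblast-like cells was lost without the CCR2-DTR+/- library at 1 month (0.46), with DESeq2 (0.61), without library as a block (0.67) and without doublet removal (0.39). Pericyte-like and fibroblast-like cells did not pass the test for either gene, with Col4a1 at -0.46 ± 0.23 (adjusted p = 0.193) and Col4a2 at -0.28 ± 0.22 (adjusted p = 0.452). Fibroblast-like cells held pericyte markers as given above, and the part of mixed-in cells in their Col4a1 and Col4a2 values was not tested.

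Col4a3, Col4a4 and Col4a5 were higher in pericyte-like than in endothelial-like cells. Col4a4, a chain of the alpha 3, alpha 4, alpha 5 network known from kidney, lung and inner ear, stood at 197, 181, 164 and 120 CPM in pericyte-like cells and at 17.8, 23.9, 71.9 and 42.6 CPM in endothelial-like cells. The ranges do not overlap, and pericyte-like cells were higher in 4 of 4 libraries (endothelial-like over pericyte-like, log2 fold change -2.27 ± 0.24; edgeR, adjusted p = 4.92e-08). Its partner Col4a3 was at 103, 124, 60.5 and 87.9 CPM in pericyte-like and 49.7, 45.9, 84.2 and 66.8 CPM in endothelial-like cells. Here the ranges overlap, WT at 6 months has the higher value in endothelial-like cells, and the log2 fold change was -0.75 ± 0.20 (adjusted p = 0.00381), a call lost with DESeq2 (-0.63) and without the CCR2-DTR+/- library at 1 month (-0.41). Pericyte-like cells were also above fibroblast-like cells for Col4a4 by 3.21 ± 0.27 (3 of 3 libraries; adjusted p = 6.64e-07) and for Col4a3 by 2.79 ± 0.30 (adjusted p = 6.54e-06). Col4a5, the third chain of that network, was at 49.3, 48.8, 32.1 and 13.9 CPM in pericyte-like cells, with 105 UMIs against 1 UMI in endothelial-like cells, a ratio of 413 (counting interval 72.5 to 16466.2). Against fibroblast-like cells, at 16.5, 28.4, 0 and 12.1 CPM, the ranges overlap and its difference of 0.82 ± 0.33 did not pass (adjusted p = 0.108).

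Collagens XV and XVIII, proteoglycans of the basement membrane zone whose ends can be released as endostatin-like fragments, went to different classes. Col15a1 stood at 580, 726, 444 and 465 CPM in endothelial-like and 343, 551, 985 and 810 CPM in fibroblast-like cells. The order turned between ages, and no difference passed the test (0.02 ± 0.24; edgeR, adjusted p = 0.95). Col15a1 was higher in endothelial-like than in pericyte-like cells by 4.46 ± 0.23 on the log2 scale (4 of 4 libraries; adjusted p = 1.42e-13). Col18a1 was at 143, 365, 161 and 112 CPM in Schwann-like, 80.1, 83.3, 32.1 and 16.2 CPM in pericyte-like and 10.5, 19.3, 13.3 and 5.71 CPM in endothelial-like cells. Schwann-like cells were above the other classes in every library, by 2.19 ± 0.35 against fibroblast-like cells (adjusted p = 5.03e-05), and pericyte-like cells were above endothelial-like cells (endothelial-like over pericyte-like -2.14 ± 0.24, adjusted p = 7.85e-08).

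The laminin alpha chains went to different classes. Lama3, a chain of epithelial laminins, stood at 140, 114, 156 and 142 CPM in endothelial-like cells and had 0 UMIs in fibroblast-like cells, which made it at least 59.0-fold higher in endothelial-like cells. In pericyte-like cells Lama3 had 2 UMIs (ratio 173, counting interval 47.8 to 1429.0). Lama4, the usual alpha chain of vessel walls, was at 272, 314, 321 and 217 CPM in endothelial-like and 105, 101, 89.0 and 83.2 CPM in pericyte-like cells, a log2 difference of 1.58 ± 0.13 (4 of 4 libraries; edgeR, adjusted p = 8.59e-10). Lama5, the other vascular alpha chain, was at 104, 94.7, 63.1 and 59.8 CPM in endothelial-like and 37.0, 26.1, 14.2 and 11.6 CPM in pericyte-like cells (1.84 ± 0.18, adjusted p = 1.65e-08). For these 3 chains the endothelial-like and pericyte-like values do not overlap. Lama2, the alpha chain of muscle and nerve, went the other way, at 170, 255, 399 and 292 CPM in fibroblast-like and 63.2, 63.9, 92.6 and 53.2 CPM in pericyte-like cells, with 3 UMIs in endothelial-like cells of the 3 libraries tested.

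Lamb1 and Lamc1, shared by most laminins, were found in endothelial-like, fibroblast-like and pericyte-like cells. Lamc1 was at 313, 369, 330 and 230 CPM in endothelial-like, 187, 189, 375 and 226 CPM in fibroblast-like and 133, 135, 142 and 80.9 CPM in pericyte-like cells. Endothelial-like cells were above pericyte-like cells by 1.39 ± 0.12 (4 of 4 libraries; edgeR, adjusted p = 1.76e-09), whereas against fibroblast-like cells the ranges overlap and the difference of 0.50 ± 0.20 did not pass (adjusted p = 0.0616). Lamb1 was at 285, 298, 321 and 246 CPM in endothelial-like and 102, 138, 352 and 145 CPM in fibroblast-like cells. It was higher in endothelial-like than in fibroblast-like cells by 1.02 ± 0.19 (adjusted p = 5.03e-04) and than in pericyte-like cells by 2.72 ± 0.19 (adjusted p = 3.79e-11). Lamb2, the beta chain of synaptic and kidney laminins, was instead highest in pericyte-like cells at 168, 130, 167 and 116 CPM, above endothelial-like cells at 95.8, 78.0, 98.1 and 94.5 CPM (endothelial-like over pericyte-like -0.64 ± 0.13, 4 of 4 libraries, adjusted p = 2.20e-04).

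Perlecan and nidogen-2 were endothelial-like genes, and nidogen-1 was shared. Hspg2, the heparan sulfate proteoglycan of basement membranes, stood at 983, 963, 856 and 728 CPM in endothelial-like, 161, 130, 399 and 280 CPM in fibroblast-like and 37.0, 34.5, 10.7 and 25.4 CPM in pericyte-like cells. The endothelial-like values lie above all others, by 4.95 ± 0.17 on the log2 scale against pericyte-like (edgeR, adjusted p = 1.85e-16) and 2.20 ± 0.25 against fibroblast-like cells (adjusted p = 5.81e-06). Nid2 was at 239, 261, 164 and 178 CPM in endothelial-like cells, above pericyte-like cells by 5.11 ± 0.22 (adjusted p = 6.91e-15) and fibroblast-like cells by 2.55 ± 0.25 (adjusted p = 1.20e-06). Nid1 was at 544, 662, 516 and 521 CPM in fibroblast-like, 429, 452, 441 and 362 CPM in endothelial-like, 202, 365, 507 and 204 CPM in Schwann-like and 191, 215, 171 and 143 CPM in pericyte-like cells. Fibroblast-like cells were highest in each library, at a small distance (endothelial-like over fibroblast-like -0.57 ± 0.17, adjusted p = 0.0142). That Nid1 call was lost without the CCR2-DTR+/- library at 1 month (-0.53), with DESeq2 (-0.57), with WT at 6 months added (-0.43) and with every gene holding at least 1 UMI (-0.43).

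Fibronectin, which assembles into fibres on cells and guides collagen deposition, was at 499, 656, 117 and 374 CPM in fibroblast-like cells. Fn1 had no UMI in Schwann-like cells, which put it at least 75.8-fold lower there than in fibroblast-like cells. Macrophage-like cells held 57.7, 126, 16.2 and 10.8 CPM of Fn1, more at 1 month than at 6 months.

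Type VI collagen, which makes beaded filaments near basement membranes, was led by fibroblast-like cells. Col6a1 was at 1066, 1361, 2251 and 1609 CPM in fibroblast-like and 259, 289, 185 and 169 CPM in pericyte-like cells, and Col6a2 at 815, 859, 1665 and 1097 CPM and 149, 162, 89.0 and 83.2 CPM. The ratio of Col6a1 to Col6a2, neighbours on the same strand of chromosome 10, was 1.46 in fibroblast-like and 1.81 in pericyte-like cells. Pericyte-like cells were lower than fibroblast-like cells for Col6a1 by 2.61 ± 0.24 on the log2 scale (3 of 3 libraries; edgeR, adjusted p = 1.61e-06) and for Col6a2 by 2.92 ± 0.25 (adjusted p = 7.02e-07). Col6a3, the third chain, was at 496, 584, 1923 and 717 CPM in fibroblast-like cells and lower in pericyte-like cells, with a log2 difference of -5.16 ± 0.35 (adjusted p = 9.29e-08). In WT at 6 months 1 of the 5 fibroblast-like cells held 77 of the 82 Col6a3 UMIs (93.9%), and likewise 90.9% of the Col5a2, 90.6% of the Col8a1 and 75% of the Col1a1 UMIs, so the fibroblast-like levels of that library rest largely on single cells. Endothelial-like cells had 1 UMI of Col6a2 in the 3 libraries tested, against 1224 in fibroblast-like cells.

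Among the fibril-associated and remaining collagens, Schwann-like cells led several members. Col28a1, a collagen known from peripheral nerve, was at 175, 328, 369 and 102 CPM in Schwann-like cells and above fibroblast-like cells by 5.69 ± 0.51 on the log2 scale (3 of 3 libraries; edgeR, adjusted p = 2.34e-08). Col12a1, a collagen of fibre surfaces, was at 53.1, 233, 357 and 102 CPM and higher by 2.98 ± 0.40 (adjusted p = 5.74e-06). Col9a2 was at 58.4, 190, 346 and 143 CPM, with 2 UMIs in fibroblast-like cells (ratio 81.6, counting interval 21.5 to 692). A few Schwann-like cells carried much of these values. The top 3 cells held 54.5%, 37.8%, 46.9% and 80% of the Col28a1 UMIs. For Col12a1 they held 80%, 31.2%, 54.8% and 70%, and for Col9a2 72.7%, 38.5%, 63.3% and 71.4%. Col20a1 was at 90.3, 117, 46.1 and 30.7 CPM in Schwann-like cells and at 0 to 3.34 CPM in every other class. The values at 6 months rest on very few UMIs: 3 UMIs there make 34.6 CPM in WT and 30.7 CPM in CCR2-DTR+/-. Col8a1 and Col16a1 were shared by Schwann-like (128, 190, 530 and 215 CPM for Col8a1) and fibroblast-like cells (109, 30, 750 and 178 CPM), and neither passed the test between them (0.90 ± 0.36, adjusted p = 0.094, and 0.58 ± 0.30, adjusted p = 0.22). Col14a1 stood at 756, 1109, 492 and 431 CPM in fibroblast-like cells and, unlike the other fibril-associated members, also at 48.1, 56.0, 60.7 and 37.9 CPM in macrophage-like cells.

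Col13a1, a transmembrane collagen of cell contacts, was an endothelial-like gene. It stood at 572, 480, 390 and 423 CPM, above pericyte-like cells by 6.70 ± 0.23 (4 of 4 libraries; edgeR, adjusted p = 1.32e-16) and above fibroblast-like cells by 5.98 ± 0.38 (adjusted p = 1.17e-08) on the log2 scale. Col19a1, a fibril-associated collagen of basement membrane zones, was a pericyte-like gene at 46.2, 5.89, 81.9 and 11.6 CPM, with both WT libraries above both CCR2-DTR+/- libraries.

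Endocrine cells held little of these genes, with some exceptions. Col4a1 was at 34.7, 33.2, 25.7 and 24.1 CPM in beta-like (insulin), 8.16, 10.6, 6.33 and 5.26 CPM in alpha-like (glucagon) and 12.5, 14.8, 6.24 and 6.09 CPM in delta-like cells (somatostatin). Beta-like cells were highest in each library and the ranges do not overlap, with a log2 difference of 2.42 ± 0.11 between beta-like and alpha-like cells (edgeR, adjusted p = 1.71e-07). Col4a2 did not accompany it: its level in beta-like cells was 0.774, 2.08, 0.386 and 0.380 CPM, and beta-like and alpha-like cells did not pass the test (-0.38 ± 0.31, adjusted p = 0.317). The ratio of Col4a1 to Col4a2 was 44.9, 16 and 63.5 in beta-like cells of the first, second and last library and 31.4 over all 4, against 1.31, 1.43, 1.49 and 1.37 in endothelial-like and 1.37, 1.55, 1.42 and 1.72 in pericyte-like cells. It was 5.09, 5.41, 5.41 and 3.82 in alpha-like cells. Each of the 3 beta-like clusters showed the excess, with 496, 2302 and 2042 UMIs of Col4a1 beside 26, 75 and 53 of Col4a2. A Col4a1 UMI was found in 42.4%, 34.6%, 46.6% and 44.0% of beta-like cells, at medians of 17055, 13802, 28518.5 and 27769.5 UMIs per cell. Thinned to 1000 UMIs the shares were 3.60%, 3.04%, 2.06% and 2.70%, against 4.73%, 6.04%, 3.19% and 3.07% of macrophage-like cells, whose Col4a1 level was 20.3, 22.2, 4.04 and 7.74 CPM. The thinned share was lower in beta-like than in macrophage-like cells in every library while the CPM was higher, so no order between these 2 classes is read from it.

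**Figure D2:**
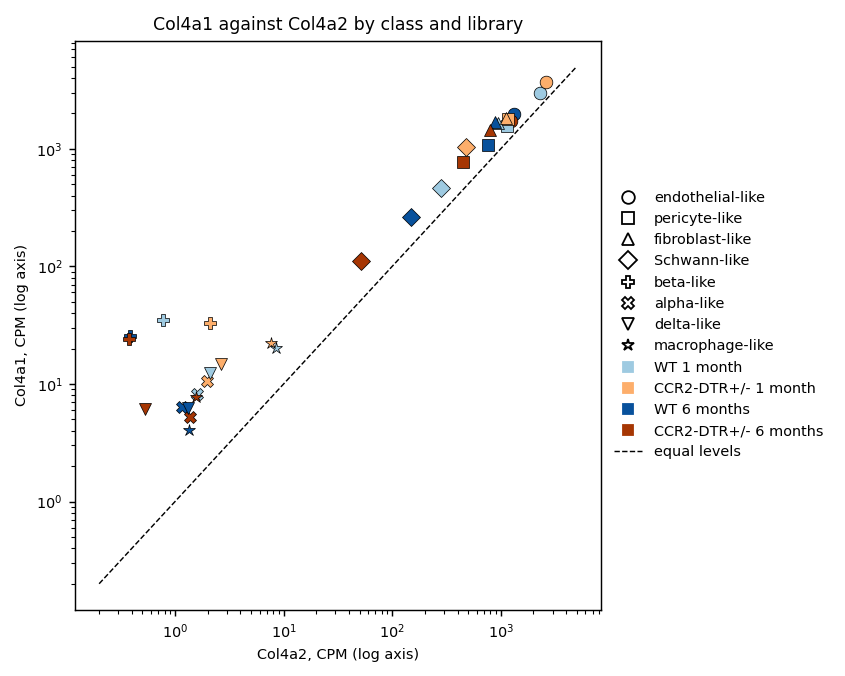
Col4a1 against Col4a2, both in CPM on log axes, for 8 classes (symbol shapes) in 4 libraries (colours), with a dashed line of equal levels. The stromal and glial classes lie close above the line, and the beta-like points lie at 24.1 to 34.7 CPM of Col4a1 with at most 2.08 CPM of Col4a2.

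Of 20 members tested between beta-like and alpha-like cells, 4 were higher in beta-like and 11 in alpha-like cells (66.5% of all genes called). Beta-like cells were higher for Col6a6 (16.7, 18.9, 29.7 and 24.0 CPM; log2 fold change 4.64 ± 0.16; edgeR, adjusted p = 6.06e-08) and Col6a3 (16.2, 15.8, 9.66 and 7.25 CPM; 4.67 ± 0.24, adjusted p = 4.32e-07), both alpha chains of type VI collagen, in 4 of 4 libraries. Alpha-like cells were higher for Col27a1, at 46.4, 33.4, 46.7 and 39.8 CPM against 5.37, 5.11, 3.04 and 3.27 CPM (beta-like over alpha-like -2.79 ± 0.17, adjusted p = 1.24e-06). Lama2, at 5.04, 1.65, 20.7 and 18.2 CPM in alpha-like cells, was lower in beta-like cells by 5.59 ± 0.22 (adjusted p = 9.57e-08), and Nid1, at 4.95, 5.11, 7.78 and 10.0 CPM in alpha-like cells, by 3.84 ± 0.36 (adjusted p = 1.63e-05). Lamc1 was at 13.9, 12.7, 15.1 and 13.0 CPM in alpha-like and 5.50, 5.78, 7.54 and 5.38 CPM in beta-like cells. Fitted differences between these classes use edgeR's normalization factors, so they depart from the plain ratios of CPM. For Lamc1 the fitted log2 difference was -0.75 ± 0.07 (edgeR, adjusted p = 2.41e-05), smaller than its CPM values give. Col1a2 was at 7.20, 5.56, 8.13 and 8.27 CPM in alpha-like cells with a Col1a1 to Col1a2 ratio of 0.0386, against 1.02 in fibroblast-like cells.

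Macrophage-like cells served as a reference class for endocrine-like cells, although they held some members themselves, such as Fn1 and Col14a1. They also held markers of other classes, most in WT at 1 month. Acinar (digestive enzyme) markers summed to 7523.5, 296, 71.4 and 543 CPM, and delta markers to 5533, 1526, 274 and 1651 CPM. Pericyte markers summed to 193, 6.76, 10.8 and 63.4 CPM. The part of mixed-in cells or free RNA in the macrophage-like values was not tested. Their basement membrane sum was 83.3, 71.4, 39.1 and 41.8 CPM, against 44.2, 45.6, 45.1 and 40.4 CPM in endocrine-like cells together. Their fibrillar sum was 50.2, 25.1, 22.9 and 33.3 CPM, against 21.95, 22.6, 27.3 and 23.4 CPM. By gene, the endocrine-like cells were higher than macrophage-like cells for 7 and lower for 4 of 24 members tested (57.5% of all genes called). With doublets kept, 6 were higher and 12 lower, a setting in which the share of all genes called was not counted. Col6a6 (1.93 ± 0.32; edgeR, adjusted p = 2.89e-04), Col6a3 (1.45 ± 0.44, adjusted p = 0.0144) and Col4a1 (0.75 ± 0.22, adjusted p = 0.0122) were among the higher, where the median over all genes tested was 0.205. The Col4a1 value was -0.97 when doublets were kept, so its direction rests on their removal. Col14a1, Fn1, Col15a1 and Col4a2 were the 4 lower members, at log2 fold changes of -9.05, -7.13, -5.80 and -1.77.

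**Figure D3:**
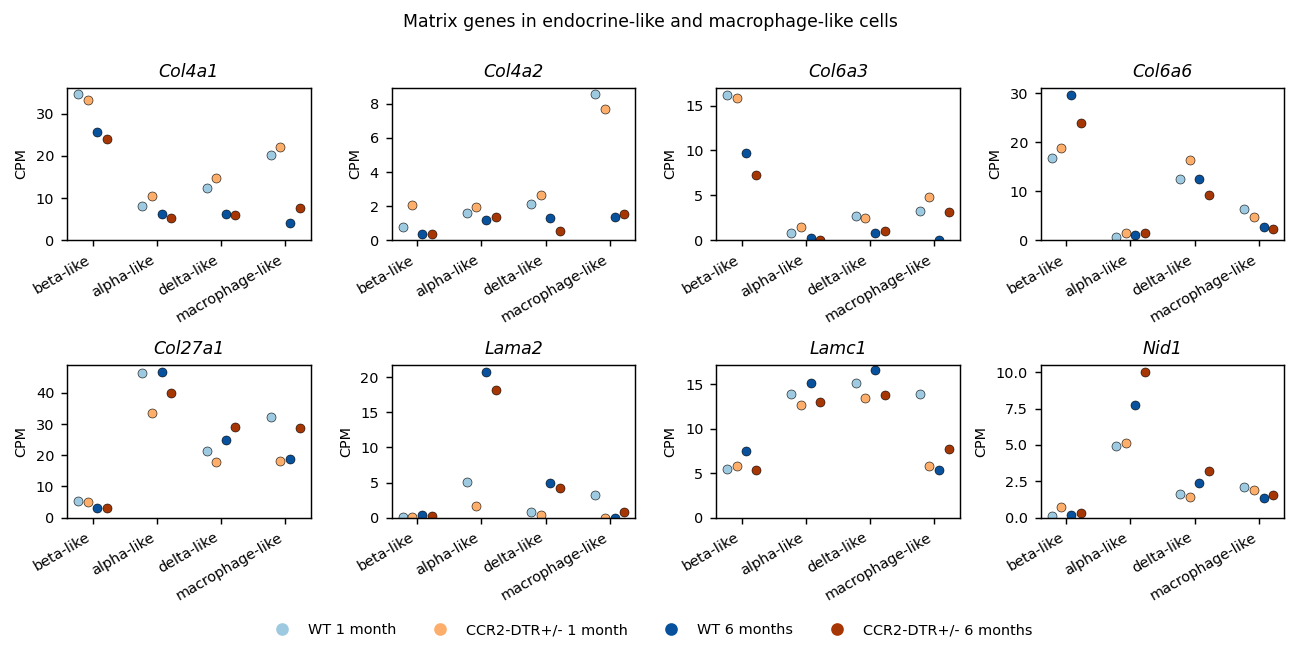
Level in CPM (linear axes from 0, scaled for each gene) of 8 members in beta-like, alpha-like, delta-like and macrophage-like cells, with 1 point for each library. Col6a3 and Col6a6 are highest in beta-like cells and Col27a1 in alpha-like cells. Col4a1 is also highest by CPM in beta-like cells, but no order against macrophage-like cells is read for it. Lama2 in alpha-like cells stands at 20.7 and 18.2 CPM at 6 months against 5.04 and 1.65 CPM at 1 month.

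The 19 members below 20 CPM in every class all had at least 1 UMI, and 13 of them had under 100 in all classes together. They include Col2a1 (1 UMI), Col22a1, Col24a1, Col9a1, Lama1 and Lamb3. A few were picked out after their values were seen. Col26a1 was at 12.6, 10.5, 14.6 and 9.52 CPM in alpha-like cells and lower in beta-like cells by 5.13 ± 0.24 on the log2 scale (4 of 4 libraries; edgeR, adjusted p = 2.50e-07). Lamc3 had 36 UMIs in pericyte-like cells and 0 in endothelial-like cells, at least 47.2-fold higher in pericyte-like cells.

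The machinery that folds, links and binds these proteins was counted from 4 fixed lists. Of genes for collagen folding and crosslinking, 1 of 22 tested was higher in endothelial-like and 18 in fibroblast-like cells (37.5% of all genes called). In the same list 1 of 23 was higher in pericyte-like and 17 in fibroblast-like cells (21.7% of all genes), and 0 of 19 were higher in Schwann-like and 13 in fibroblast-like cells (19.5% of all genes). Loxl1, a lysyl oxidase that crosslinks collagen and elastin, was lower in pericyte-like than in fibroblast-like cells by 6.16 ± 0.30 on the log2 scale (edgeR, adjusted p = 6.21e-09). Of receptors for collagen and laminin, 6 of 19 were higher in endothelial-like and 11 in pericyte-like cells (46.8% of all genes called). Itga6, the alpha 6 integrin that binds laminin, was higher in endothelial-like cells by 5.78 ± 0.26 (adjusted p = 1.03e-14) and Itga7, the alpha 7 laminin integrin of muscle, in pericyte-like cells (-8.02 ± 0.29, adjusted p = 3.41e-16). Ddr2, a receptor kinase for fibrillar collagen, was lower in endothelial-like than in pericyte-like cells by 5.63 ± 0.32 (adjusted p = 9.12e-13). Of 9 matrix proteases and inhibitors tested between these 2 classes, 3 were higher in endothelial-like and 4 in pericyte-like cells, and of 22 other matrix genes 8 and 12, beside the same 46.8%. Between beta-like and alpha-like cells 8 of 18 receptors were higher in beta-like and 6 in alpha-like cells, where 66.5% of all genes were called, with Itga6 higher in beta-like cells by 2.50 ± 0.12 (adjusted p = 2.66e-07).

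Genotype and age are 1 library each, so the values that follow have no test. Ratios carry exact 95% intervals for 2 Poisson counts, which cover counting error only and not the spread between mice. A gene is counted as past 1.5-fold where its ratio is beyond 1.5 in either direction and the interval excludes 1, among genes with at least 20 UMIs over both libraries. In endothelial-like cells, basement membrane RNA was lower at 6 months than at 1 month in both genotypes. The sum was 0.753 of its 1-month level in WT (0.737 to 0.769) and 0.578 in CCR2-DTR+/- (0.566 to 0.590). Members past 1.5-fold were 3 higher and 4 lower of 20 in WT (10.4% of all genes past it) and 2 higher and 9 lower of 21 in CCR2-DTR+/- (11.4% of all genes past it). Col4a1 and Col4a2 together were at 0.618 (0.600 to 0.637) and 0.473 (0.460 to 0.486), while the laminin chains were at 1.07 (1.01 to 1.12) and 0.779 (0.739 to 0.821) and the linkers at 0.885 (0.844 to 0.927) and 0.757 (0.723 to 0.792), in WT and CCR2-DTR+/-. The linkers were thus lower in both genotypes, and the laminin chains in CCR2-DTR+/- only.

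The second type IV pair moved the other way in endothelial-like cells. Col4a4 at 6 months was 4.04 times its 1-month level in WT (2.90 to 5.72) and 1.78 times in CCR2-DTR+/- (1.30 to 2.45), and Col4a3 was 1.69 times in WT (1.34 to 2.14). Col4a1 was at 0.654 and 0.464, Col4a2 at 0.572 and 0.485, and Lama5 at 0.609 and 0.631 of the 1-month level in WT and CCR2-DTR+/-. Col5a2 was at 0.129 (0.0336 to 0.353) and 0.252 (0.109 to 0.518), from 44 and 48 UMIs at 1 month to 4 and 9. Genotype made smaller differences: 1 member higher and 0 lower of 23 at 1 month (4.49% of all genes past 1.5-fold), namely Col18a1, and 0 higher and 2 lower of 18 at 6 months (5.58% of all genes past it), namely Col4a4 and Col18a1. The basement membrane sum in CCR2-DTR+/- was 1.14 times WT at 1 month (1.12 to 1.16) and 0.874 at 6 months (0.853 to 0.896).

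**Figure D4:**
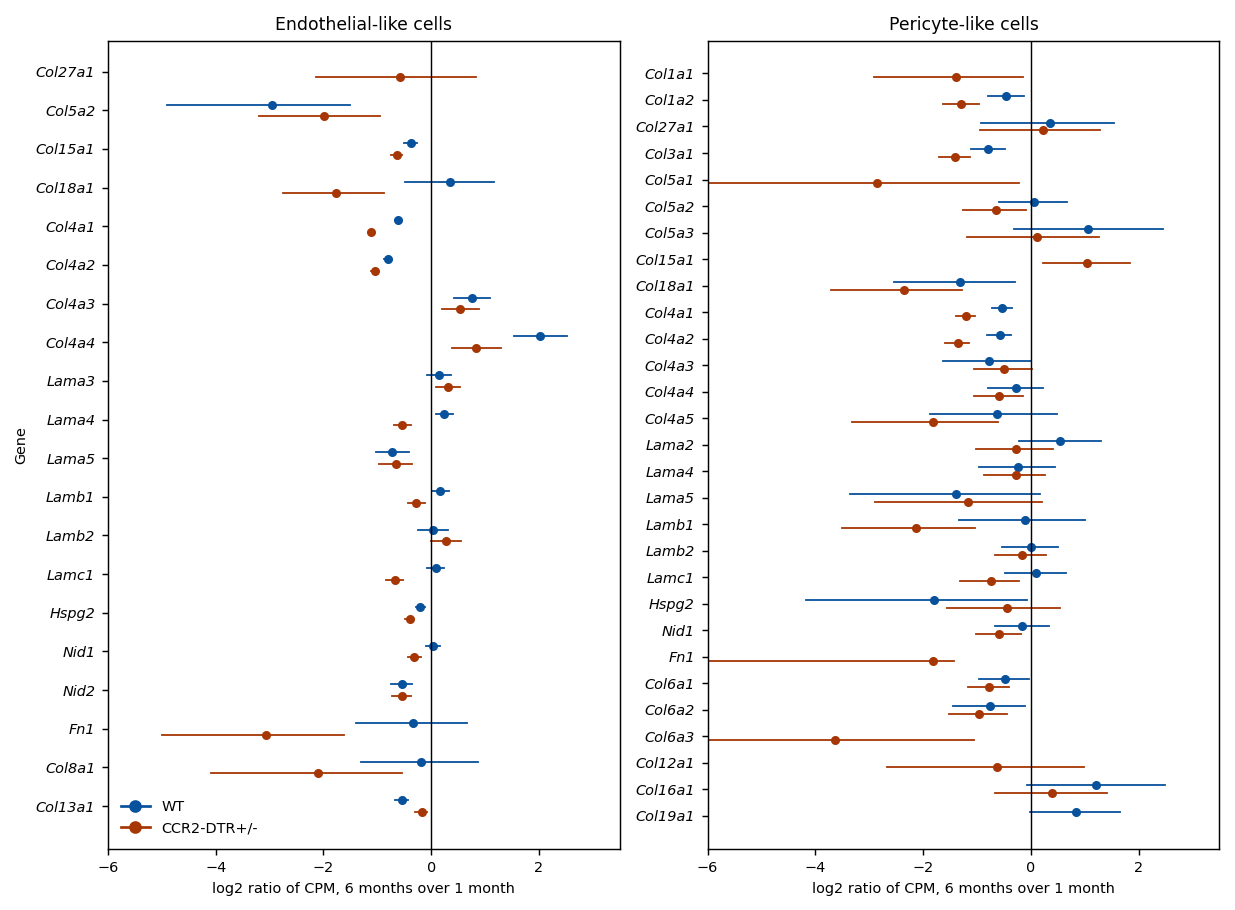
Log2 ratio of CPM at 6 months over 1 month with its exact 95% counting interval for the members in endothelial-like (left) and pericyte-like cells (right), WT and CCR2-DTR+/- in separate colours; bars that reach -6 run on, and for Fn1 in pericyte-like cells, with 0 UMIs at 6 months, the point is at 3 UMIs. On the left Col4a4 lies to the right of 0 and Col4a1 and Col4a2 to the left in both genotypes, and on the right most CCR2-DTR+/- points lie below 0.

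In pericyte-like cells the basement membrane sum at 6 months was 0.736 of its 1-month level in WT (0.679 to 0.796) and 0.493 in CCR2-DTR+/- (0.458 to 0.529). Past 1.5-fold with age were 0 higher and 4 lower of 23 members in WT (9.2% of all genes past it) and 1 higher and 17 lower of 29 in CCR2-DTR+/- (9.56% of all genes past it). Col3a1 was at 0.579 (0.463 to 0.720) and 0.375 (0.306 to 0.457), and Col18a1 at 0.400 (0.173 to 0.819) and 0.194 (0.0762 to 0.416) of the 1-month level. In CCR2-DTR+/- Col4a1 was at 0.432 (0.384 to 0.485), Col4a2 at 0.389 (0.333 to 0.452) and Nid1 at 0.666 (0.496 to 0.882). The Nid1 log2 ratio turned to 0.01 when every cell weighted the same. Col15a1 was the member higher at 6 months, at 2.06 (1.16 to 3.61). Unlike in endothelial-like cells, the CPM of Col4a3 and Col4a4 given above was lower at 6 months in both genotypes. It went in the direction of Col4a1 and Col4a2. Hormone UMIs made up 9.87%, 13.9%, 5.39% and 20% of the UMIs of pericyte-like cells, highest in CCR2-DTR+/- at 6 months. With totals that leave out hormone and digestive enzyme genes the age ratio of the sum in CCR2-DTR+/- was 0.531.

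Between genotypes, pericyte-like cells had 3 members higher and 1 lower of 30 at 1 month (7.08% of all genes past 1.5-fold) and 1 higher and 4 lower of 18 at 6 months (16.4% of all genes past it). Col19a1 was lower in CCR2-DTR+/- at both ages, 7.85-fold at 1 month (ratio 0.127, 0.0472 to 0.296) and 7.08-fold at 6 months (ratio 0.141, 0.0419 to 0.380), from 30, 7, 23 and 5 UMIs. Col15a1 was higher in CCR2-DTR+/- at 6 months, at 5.19 (1.58 to 26.9), from 24 UMIs against 3. The basement membrane sum was 1.07 at 1 month (1.02 to 1.12) and 0.714 at 6 months (0.649 to 0.786), where the median gene was at -0.26 on the log2 scale. The value at 6 months turned to 1.08 when each cell weighted the same and to 1.05 at a clustering resolution of 2.

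In fibroblast-like cells the fibrillar collagen sum in CCR2-DTR+/- was 1.43 times WT at 1 month (1.39 to 1.47), with 11 members higher and 1 lower of 31 past 1.5-fold (10.7% of all genes past it, median gene at 0.11 on the log2 scale). Col1a1 was at 1.57 (1.47 to 1.67), Col5a2 at 1.54 (1.27 to 1.87), Col15a1 at 1.61 (1.32 to 1.97) and Nid2 at 2.90 (1.38 to 6.84). Col8a1 was the lower member, at 0.276 (0.151 to 0.486), but 3 cells held 35 of its 46 UMIs in WT and 3 cells 14 of its 18 in CCR2-DTR+/-. Hormone UMIs were 17.3% of the UMIs of these cells in WT and 10.0% in CCR2-DTR+/- at 1 month, and the sum was at 1.31 without hormone and digestive enzyme genes in the totals and at 1.16 with cells weighted the same. At 6 months the sum was at 0.943 (0.876 to 1.02) over 5 WT cells.

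With age, fibroblast-like cells of CCR2-DTR+/- held 0.819 of the fibrillar sum (0.794 to 0.845), with 3 members higher and 6 lower of 30 (14% of all genes past 1.5-fold). Col8a1 was at 5.92 (3.44 to 10.7), against the 18 UMIs at 1 month that a few cells carried, and Hspg2 at 2.15 (1.58 to 2.95), whereas Col14a1 was at 0.388 (0.322 to 0.466) and Fn1 at 0.570 (0.462 to 0.699). In WT the fibrillar sum was at 1.24 (1.15 to 1.34) over the same 5 cells, and it turned to 0.582 when each cell weighted the same, so no direction is read from it.

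In endocrine cells a large age difference was that of Lama2, the muscle and nerve laminin chain, in alpha-like cells. It was 4.10 times as high at 6 months in WT (3.28 to 5.14; 110 and 300 UMIs) and 11 times in CCR2-DTR+/- (7.65 to 16.3; 33 and 290 UMIs). Delta-like cells showed the same direction for Lama2 at lower levels, 0.824, 0.382, 4.92 and 4.27 CPM. Members past 1.5-fold in alpha-like cells were 3 higher and 2 lower of 19 in WT (9.59% of all genes past it) and 4 higher and 4 lower of 20 in CCR2-DTR+/- (9.65% of all genes past it), Nid1 being among the higher in both at 1.57 (1.20 to 2.06) and 1.96 (1.52 to 2.54). In beta-like cells they were 3 higher and 6 lower of 22 in WT (10.9% of all genes past it) and 2 higher and 12 lower of 26 in CCR2-DTR+/- (11.8% of all genes past it). Col6a6 was at 1.78 in WT (1.61 to 1.97) and at 1.27 in CCR2-DTR+/- (1.15 to 1.41), under 1.5-fold, and Col6a3 at 0.595 (0.508 to 0.693) in WT and 0.458 (0.394 to 0.531) in CCR2-DTR+/-. Col27a1, already low in beta-like cells, was at 0.567 (0.426 to 0.744) and 0.641 (0.505 to 0.810). The median gene stood at 0.16 in beta-like and -0.11 in alpha-like cells of WT on the log2 scale.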

How the data were processed

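The values are raw UMI counts by gene and barcode, deposited by the authors and made with Cell Ranger 5.0.1 on mm10, per the submitters' processing notes; the barcode and gene lists are other files without measurements, as deposited. The sources used here do not give the annotation release or the treatment of introns. Members and lists were chosen with earlier results of these data known. Barcodes were kept from 1000 UMIs and 500 genes upward, with a mitochondrial share of no more than 15%, pooled over 4 libraries (142 barcode sequences occur in more than 1), and clustered in scanpy 1.11.5 on 2000 variable genes without the 59 members, with 30 principal components, 15 neighbours and Leiden resolution 1 (leidenalg 0.10.2). Cells with a Scrublet score over 0.25 were removed. Of 23 clusters 19 were named from 19 fixed marker lists. An endothelial-like cluster with low UMI counts, which lost 57.4% of its cells to doublet removal and kept 109, was left out in an added alternative.

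Counts summed per library and class (at least 10 cells) were tested with edgeR 4.0.16 (R 4.3.3; TMM, filterByExpr, quasi-likelihood, library as block, Benjamini-Hochberg adjustment over all genes tested), with the library as the replicate; nothing shows the spread between mice. The test was also run on simulated counts, with known fold changes in genes drawn at random from all genes that passed the filter. The simulation held no differences between libraries and was no check of the members' own calls. Library ratios have exact conditional 95% Poisson intervals for counting error only; a count of 0 was set to 3 UMIs over the class, and the fold is then given as a bound. Members with a median of at least 20 CPM in a class were named with values, and between libraries up to 10 in each direction past 1.5-fold; related genes are up to 4 a list by size of the fold. Sequence windows come from RefSeq GRCm38.p6.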

Additional observations from a re-analysis of the deposited data

Results flagged for a closer look

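Col18a1, the chain of collagen XVIII, differed between genotypes in opposite directions in endothelial-like cells. The log2 ratio of CCR2-DTR+/- over WT was 0.88 at 1 month, from 29 and 59 UMIs, and -1.22 at 6 months, from 26 and 13 UMIs. Each age is 1 library of each genotype, and the difference between the ages was not tested.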

How the results depend on the processing

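Of the summary results and their alternatives, 143 values of 170 stayed within 1.5 times the reported count or within the counting interval of the reported ratio. Members called between endocrine-like and macrophage-like cells went from 11 to 18 without doublet removal. With every gene holding at least 1 UMI, 35, 34, 29, 26, 14 and 20 members were called in the 6 contrasts (endothelial-like against fibroblast-like, endothelial-like against pericyte-like, pericyte-like against fibroblast-like, Schwann-like against fibroblast-like, endocrine-like against macrophage-like and beta-like against alpha-like), and with DESeq2 28, 27, 22, 20, 9 and 14. Without the library block (no replicate block) 29, 28, 25, 19, 9 and 14 were called. The block pairs classes taken from the same library. The share of all genes called was not counted under any of these alternatives. A change in the members called therefore cannot be told apart from a change over all genes. Leaving out each library in turn gave 27 to 32, 28 to 29, 22 to 26, 23 to 24, 8 to 10 and 14 to 18. Totals without hormone and digestive enzyme genes, the endothelial-like cells without their low-UMI cluster and WT at 6 months added with 5 fibroblast-like cells were chosen after the data were seen.

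The ratio of the fibrillar sum in fibroblast-like cells (CCR2-DTR+/- over WT, or 6 months over 1) was, with each cell weighted the same, 1.16 for genotype at 1 month, 1.45 at 6 months, 0.582 for age in WT and 0.727 for age in CCR2-DTR+/-. Without hormone genes in the totals it was 1.31 for genotype at 1 month and 1.04 for age in WT, and without doublet removal 0.866 for age in CCR2-DTR+/-. The basement membrane sum in pericyte-like cells, for genotype at 1 month, was 1.23 without doublet removal, 1.17 at resolution 2 and 1.13 without hormone genes. For genotype at 6 months it was 1.08 with equal weights, 1.05 at resolution 2 and 0.861 without hormone genes. For age in WT it was 0.812 without doublet removal, 0.592 with equal weights and 0.65 at resolution 2, and for age in CCR2-DTR+/- 0.6 with equal weights, 0.583 at resolution 2 and 0.531 without hormone genes. In endothelial-like cells it was 1.3 without doublet removal and 1.08 with equal weights for genotype at 1 month, 0.909 with equal weights and 0.907 without hormone genes for genotype at 6 months, and for age in WT 0.845 without doublet removal, 0.677 with equal weights and 0.724 without hormone genes. Equal weights put the fibrillar ratios at 6 months and for age in WT, and the pericyte-like ratio at 6 months, on the other side of 1, and resolution 2 did so for the last. The cause of these shifts was not tested.

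Of 3172 values for single members under alternatives, 31 changed sign. Among the class contrasts the difference of Col4a1 between endocrine-like and macrophage-like cells had passed the test, and the others had not. Values are log2 differences. Against fibroblast-like cells, endothelial-like Col15a1 turned to -0.03 without the block, -0.26 and -0.13 without the WT and CCR2-DTR+/- libraries at 1 month, -0.18 without doublet removal and -0.14 with WT at 6 months added. Lamb2 turned to -0.02 without doublet removal and -0.12, and Col4a4 to -0.70, with members among the variable genes. Endothelial-like against pericyte-like, Fn1 turned to 0.01 without the CCR2-DTR+/- library at 1 month and 0.10 with at most 10% mitochondrial UMIs. Pericyte-like against fibroblast-like, Col18a1 turned to -0.20 without the WT library at 1 month and -0.00 with at most 10% mitochondrial UMIs, Col4a2 to 0.01 without the CCR2-DTR+/- library at 6 months and 0.04 at resolution 2, and Lama4 to -0.47 with members among the variable genes. Schwann-like against fibroblast-like, Hspg2 turned to 0.10 without the CCR2-DTR+/- library at 6 months and 0.16, and Col5a3 to 0.10, with at most 10% mitochondrial UMIs, and Lama4 to -0.46 with members among the variable genes. Endocrine-like against macrophage-like, Lamb1 turned to 0.42 without the CCR2-DTR+/- library at 1 month and 0.29 at resolution 2, and Col1a2 to -0.04 and -0.06 without the WT and CCR2-DTR+/- libraries at 6 months and -0.03 at resolution 2. In the same contrast Col4a1 turned to -0.97, Lamc1 to -0.04 and Nid1 to -0.96 without doublet removal, and Hspg2 to 0.52 at resolution 2. Beta-like against alpha-like, Col20a1 turned to -0.11 and Col3a1 to -0.00 without normalization factors. The other ends of the ranges over left-out libraries were 0.48 for Col15a1 (without CCR2-DTR+/- at 6 months), -0.56 for Fn1 (without WT at 1 month), 0.93 for Col18a1 (without CCR2-DTR+/- at 6 months), -0.43 for Col4a2 (without WT at 1 month), -1.22 for Hspg2 (without CCR2-DTR+/- at 1 month), and 1.87 for Col1a2 and -1.27 for Lamb1 (both without WT at 1 month), each in the contrast named above. In pericyte-like cells Nid1 with age in CCR2-DTR+/- turned to 0.01 with equal weights.

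Depth limits the smallest classes: fibroblast-like cells of WT at 6 months number 5 and Schwann-like cells 12 to 30, so a gene absent from them is not shown to be absent from the cell type.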

Other observations

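Beta-like cells held low levels of several stromal genes that were higher in the CCR2-DTR+/- library at 1 month than in WT. Col3a1 was at 0.741 and 2.30 CPM, a ratio of 3.10 (2.15 to 4.53), Col4a2 at 0.774 and 2.08 CPM (2.69, 1.86 to 3.92) and Nid1 at 0.115 and 0.726 CPM (6.30, 2.71 to 17.0). Col3a1 was also higher there in alpha-like (2.98, 1.62 to 5.80) and delta-like cells (3.99, 1.72 to 10.3). Col3a1 stood at 7675 and 10443 CPM in fibroblast-like cells of the same libraries, and the part of free RNA in the low values was not tested.

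Col25a1, a transmembrane collagen of neurons, was picked out after its values were seen. In delta-like cells it stood at 4.49, 8.14, 1.08 and 1.07 CPM, so at 6 months it was at 0.241 (0.104 to 0.495) of its 1-month level in WT and at 0.131 (0.0601 to 0.257) in CCR2-DTR+/-. In endothelial-like cells it went the other way, at 2.55 (1.31 to 5.15) and 2.12 (1.15 to 3.98).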
